A study of Arabidopsis thaliana with 156 samples.

Results

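Leaf 7 and leaf 11 of one Arabidopsis thaliana genotype, FRI;FLC, were compared at the same stage of growth, each collected once it had stopped expanding. The comparison used the arrays labelled as fully expanded leaf 7 (6 arrays) and fully expanded leaf 11 (6 arrays), with the 6 arrays of leaf 9 as the step between, and all 19324 probe sets. These 18 arrays are 18 of the 156 in the series, and they come from 2 sets of plants, called experiment 1 and experiment 2, with 3 replicates of each leaf in each. The difference reported is the mean of the differences within the experiments, followed by each experiment alone.

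FRI;FLC plants are Col-0 carrying an active FRI allele introgressed from Sf-2, grown in 16 h days at a constant temperature. A leaf counted as fully expanded once it lengthened by less than 1 mm. Leaf 7 was collected on day 29, leaf 9 on day 33, and leaf 11 on day 34 in experiment 1 and day 33 in experiment 2, so leaf position and the age of the plant cannot be told apart in leaf 11 against leaf 7. Comparison groups were leaf 7 of FRI;FLC past full expansion (day 33, experiment 2), leaves 3 and 5 of FRI;FLC (days 23 and 26), primordia of leaves 7 and 11 of FRI;FLC (days 14 and 18, experiment 1) and leaves 7 and 9 of FRI;flc-3, the same introgression with the flc-3 mutation (days 26 and 30 in experiment 1, 29 and 32 in experiment 2). Each leaf replicate was RNA of 9 leaves taken at 3 times of a day and pooled. The p-values for leaves therefore measure the spread between such pools, shared over 90 leaf arrays in 30 groups, not over the compared groups alone. As in any bulk tissue, fewer cells of a type and less RNA per cell cannot be told apart.

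As a rosette grows, successive leaves are made by an older shoot, and leaves made early and late in vegetative life differ in shape, hairs and gene activity, which is known as vegetative phase change. A leaf that has stopped expanding also ages: it exports nitrogen and sugar, breaks down chlorophyll and can lay down anthocyanin, a red pigment built from flavonoids by dihydroflavonol reductase and a series of glycosyltransferases. Expansins and related proteins loosen the cell wall while cells enlarge. CC-type glutaredoxins are small plant proteins, several of which are known in Arabidopsis to respond to the nitrogen supply.

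The leaf identity of the tissue was checked first. The 4 mesophyll markers measured (of 17 listed) averaged between 11.99 and 12.94 on the log2 scale in every array, while CLV3, a stem cell peptide and the 1 shoot meristem marker measured of 10, stayed between 1.26 and 1.94 and the 2 pollen markers of 9 between 1.57 and 1.95. No listed flower marker (8) or xylem marker (9) was named on the array. The root marker PYK10 lay between 2.1 and 5.81, 3 guard cell markers of 10 between 2.81 and 3.43, 2 phloem markers of 10 between 7.05 and 8.04 and the trichome gene TRY between 7.6 and 9.57, and no marker gene was called between leaf 11 and leaf 7. Array medians lay between 6.43 and 6.83, and no pair of arrays was identical (highest correlation 0.994).

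In 4 arrays the correlation with the other replicates of their group stayed under the rest: leaf 9 replicate 3 (highest 0.9624) and leaf 11 replicate 3 (0.9642) of experiment 1, and leaf 9 replicate 2 (0.9674) and leaf 11 replicate 3 (0.9762) of experiment 2. Their signal also moved differently with gene length. In experiment 1 the slope of log2 signal on gene length was −0.161 and −0.142 in those arrays, against 1.16 and 1.36 in the other leaf 9 arrays and 1.32 and 1.15 in the other leaf 11 arrays. In experiment 2 it was 0.349 and 0.690, against −0.723 and −1.01 in leaf 9 and −0.325 and −0.565 in leaf 11. Within each experiment the pair of arrays that stood apart was most alike (correlation 0.9902 and 0.9891). The leaf 7 slopes were 0.593, 0.29 and 0.562 in experiment 1 and 0.117, 0.271 and −0.164 in experiment 2. Apart from the 4 arrays, the slope was thus higher in leaves 9 and 11 than in leaf 7 in experiment 1 and lower in experiment 2, so it moved with the leaf comparison in opposite ways in the 2 experiments. With each array's length trend removed, 10857 probe sets could be tested. Of the 843 leaf 11 against leaf 7 calls among them, 785 were called the same way. For the difference between the experiments 111 of 123 calls were. That fit kept the 4 arrays that stand apart, whose slopes lie against those of their groups. Whether the calls depend on the slope without these 4 arrays was not tested.

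**Figure D1:**
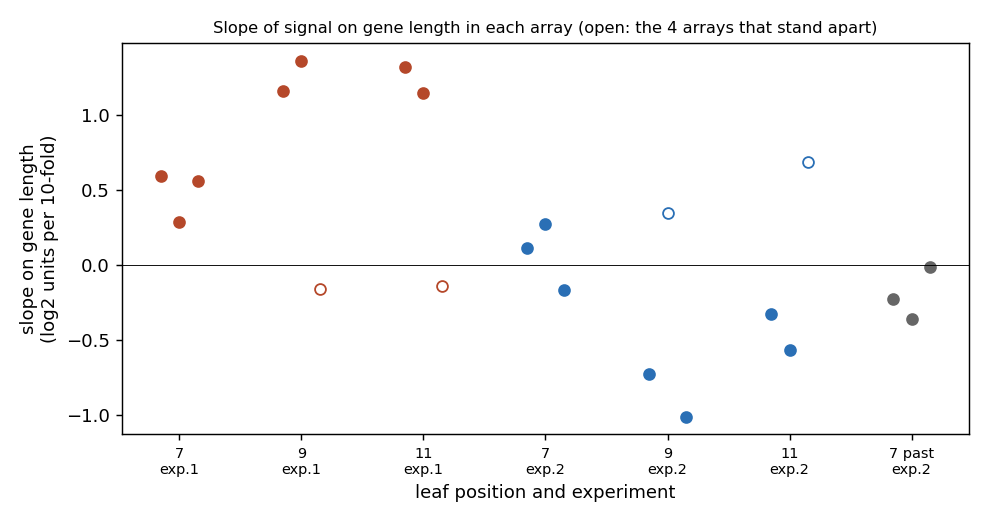
Slope of log2 signal on gene length in log2 units per 10-fold length (y axis) for each array of FRI;FLC leaves 7, 9 and 11 in experiments 1 and 2 and of leaf 7 past full expansion (x axis). Points are arrays and open circles mark the 4 arrays that stand apart, which lie at −0.161 and −0.142 in experiment 1 and at 0.349 and 0.690 in experiment 2.

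Between leaf 7 and leaf 11, 754 probe sets rose and 927 fell, which is 1681 of 19324 or 8.70% (3.90% higher and 4.80% lower). Calls here and throughout are adjusted p-values below 0.05 from limma's moderated test, with Benjamini-Hochberg adjustment over all probe sets. At least 2-fold changes made up 234 of the higher and 307 of the lower calls, and the median size of a called difference was 0.773 on the log2 scale. The median difference over all probe sets was −0.006. Without the 4 arrays that stand apart, 666 rose and 832 fell, and 1292 probe sets were called the same way in both fits. Fitting only the 4 groups compared gave 357 rises and 491 falls, 848 in all, of which 790 kept their call and direction.

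**Figure D2:**
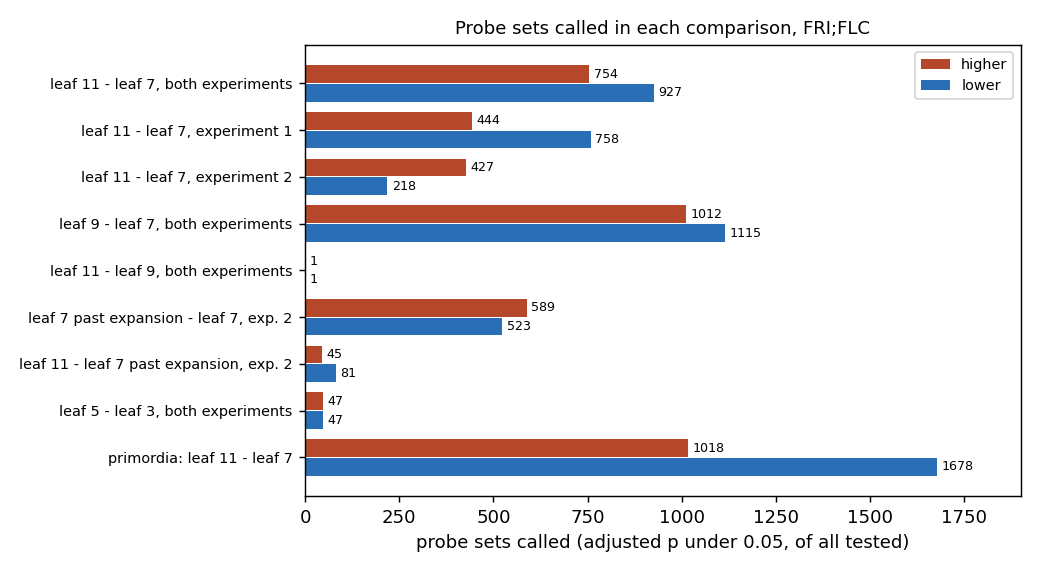
Number of probe sets called higher (red) and lower (blue) at an adjusted p under 0.05, of 19324 tested, in each comparison of FRI;FLC tissue. The bars for leaf 11 against leaf 7 reach 754 and 927, those for leaf 11 against leaf 9 reach 1 each.

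The anthocyanin genes DFR, AT4G14090 and UF3GT gave the largest called rises among named genes with the same sign in both experiments and a mean of at least 5. All 5 members of the flavonoid and anthocyanin list that were measured, of 22 listed, rose from leaf 7 to leaf 11, with a median difference of 2.91, against 3.90% of all probe sets higher and a median of −0.006. DFR (AT5G42800), which makes the leucoanthocyanidins that lead to anthocyanin, ranged over 3.41, 6.85 and 12.08 (lowest, median and highest log2 signal of 6 arrays) in leaf 7, 8.98, 11.39 and 11.71 in leaf 9, and 10.40, 11.01 and 12.03 in leaf 11. Leaf 7 was split: replicate 2 of experiment 1 (12.08) and replicate 1 of experiment 2 (11.01) were as high as leaf 11, and the other 4 arrays lay below every leaf 11 array. The difference was 3.49 ± 0.76 (SE of the fit, 6 arrays a side; adjusted p = 0.00103), and the call was lost when only the 4 groups compared were fitted (adjusted p = 0.143). DFR was called in experiment 1 alone, but not without leaf 7 replicate 1 (adjusted p = 0.0837) or 3 (0.427) of that experiment. That call was also lost without its leaf 11 replicate 2 (0.0559) or 3 (0.0509).

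AT4G14090, an anthocyanin glucosyltransferase, showed the same 2 high leaf 7 arrays. Its signal was 4.2, 4.84 and 9.71 in leaf 7, 6.48, 10.18 and 10.48 in leaf 9 and 8.67, 9.36 and 10.25 in leaf 11. It rose by 3.36 ± 0.58 (adjusted p = 2.92e-05), by 3.53 ± 0.82 in experiment 1 and 3.19 ± 0.82 in experiment 2. UF3GT (AT5G54060), which adds a further sugar to anthocyanin, was at 2.40, 3.24 and 8.60 in leaf 7 and at 6.98, 7.35 and 7.81 in leaf 11. In UF3GT the single highest array was a leaf 7 array, replicate 2 of experiment 1, and the 5 others lay below all leaf 11 arrays. The rise was 2.91 ± 0.60 (adjusted p = 0.00049; 0.0942 when only the groups compared were fitted).

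UGT78D2, which glucosylates flavonols and anthocyanidins, rose by 0.95 ± 0.27 (adjusted p = 0.0131), from 7.65, 8.14 and 9.96 in leaf 7 to 9.04, 9.32 and 9.91 in leaf 11. UGT78D1, a flavonol rhamnosyltransferase, rose by 0.52 ± 0.15 (adjusted p = 0.0211). Both overlapped between the leaves, since the highest leaf 7 array exceeded the lowest leaf 11 array. Without the arrays that stand apart 4 of the 5 list members were called, all higher, with a median of 2.89.

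**Figure D3:**
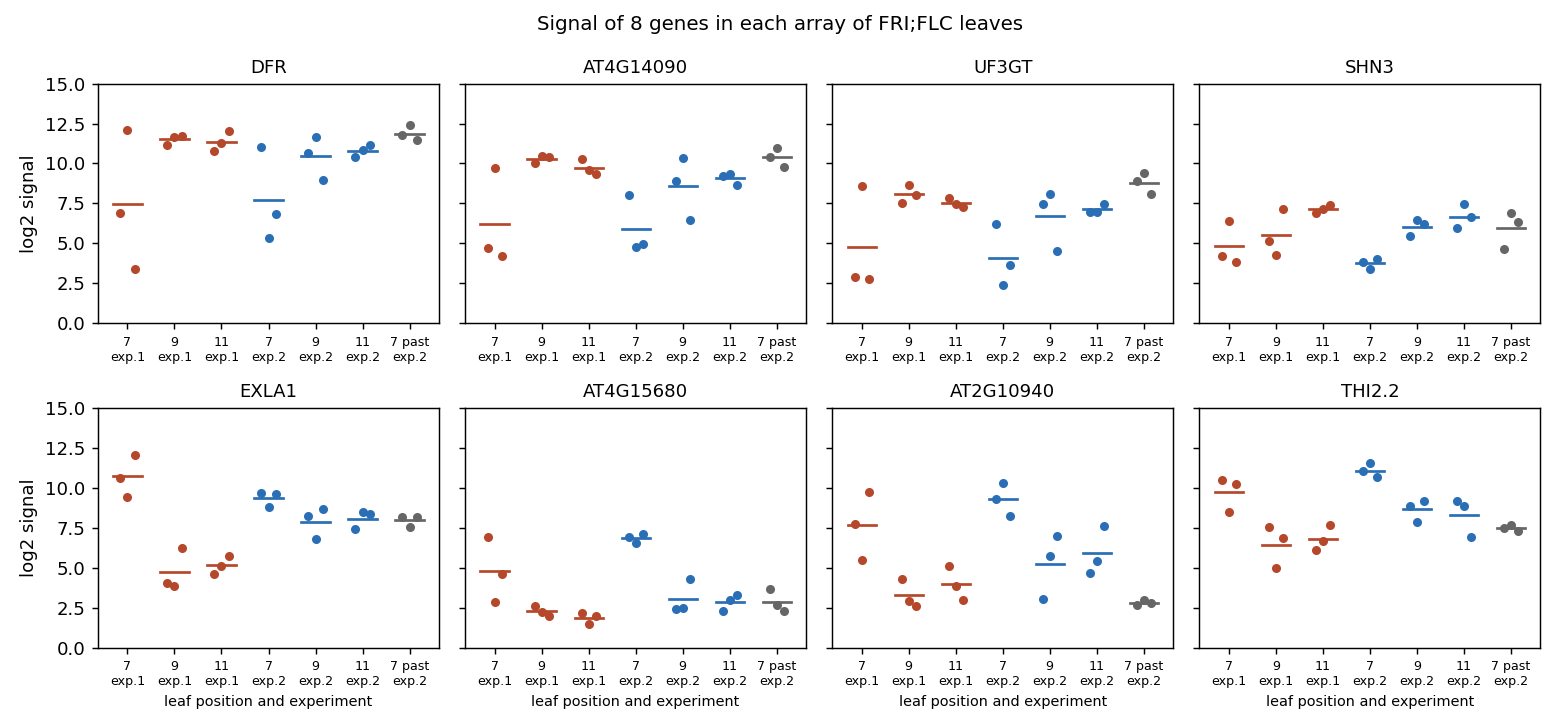
Log2 signal (y axis) of 8 genes in each array of FRI;FLC leaves 7, 9 and 11, experiment 1 in red and experiment 2 in blue, and of leaf 7 past full expansion in grey; points are arrays and lines are group means. DFR, AT4G14090 and UF3GT each have 1 leaf 7 array per experiment far above the others, and EXLA1, AT4G15680, AT2G10940 and THI2.2 are lower in leaves 9 and 11 than in leaf 7.

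SHN3 (AT5G25390), an AP2-domain transcription factor of the SHINE group that raises cuticular wax and cutin synthesis, was at 3.35, 3.91 and 6.4 in leaf 7, 4.26, 5.81 and 7.13 in leaf 9 and 5.94, 7.02 and 7.45 in leaf 11. Within each experiment every leaf 11 array exceeded every leaf 7 array. The rise was 2.65 ± 0.36 (adjusted p = 1.7e-07), 2.35 in experiment 1 and 2.95 in experiment 2. WSD1, the wax ester synthase and the other cuticle gene measured, went the opposite way, from 3.93, 4.97 and 6.10 in leaf 7 to 2.42, 3.47 and 3.88 in leaf 11 (−1.82 ± 0.40, adjusted p = 0.00106). Its leaf 7 and leaf 11 arrays did not overlap.

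APL3 (AT4G39210), a large subunit of ADP-glucose pyrophosphorylase in starch synthesis, rose from 8.10, 8.56 and 9.20 in leaf 7 to 9.32, 9.53 and 10 in leaf 11, a difference of 1.05 ± 0.15 (adjusted p = 9.67e-07). No leaf 7 array reached the lowest leaf 11 array. NRT2.5 (AT1G12940), a high-affinity nitrate transporter known from nitrogen-starved plants, was near the bottom of the scale in leaf 7 (1.64, 1.84 and 1.93) and at 2.66, 2.86 and 4.10 in leaf 11 (1.26 ± 0.15, adjusted p = 9.21e-09). The leaf 7 arrays lay below all leaf 9 and leaf 11 arrays, at the level of CLV3 and the pollen markers, so the size of the fitted rise is not a measured ratio. AGL42 (AT5G62165), a MADS-box gene of the flowering pathway, stood at 2.14, 2.45 and 2.96 in leaf 7, 2.67, 3.06 and 3.96 in leaf 9 and 3.36, 3.67 and 4.66 in leaf 11 (1.34 ± 0.18, adjusted p = 1.7e-07). Leaf 7 and leaf 11 did not overlap, and both lay in the low part of the array's range.

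Of the genes known only by locus tag, AT1G17744 was at 4.59, 5.03 and 6.17 in leaf 7 and 6.78, 7.38 and 8.31 in leaf 11, a rise of 2.43 ± 0.35 (adjusted p = 6.04e-07) with no overlap. AT1G65690 (2.15), AT4G18250 (2.06) and AT4G17670 (1.98) also rose without overlap between the leaves. The other named rises were AT3G10930 (2.56), AT2G18210 (2.17), AT1G78410 (2.11), AT4G26950 (2.02) and AT5G52740 (1.99), and AT4G16260 (2.76), which is described with the experiments. The steepest rise of all belonged to a probe set with no gene name here, 260140_at, which went from 2.23, 3.13 and 6.67 in leaf 7 to 8.59, 9.96 and 10.69 in leaf 11, or 5.98 ± 0.67 (adjusted p = 7.47e-10). Its leaf 9 arrays, at 7.19 to 11.11, were already apart from leaf 7.

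CC-type glutaredoxins made up 5 of the 14 genes with the steepest named falls. Over the family, 17 of 21 members were measured, of which 9 fell, 3 rose and 5 were not called, with a median difference of −1.11, against 4.80% of all probe sets lower; this list was added after the values were seen, so the count describes the family and tests nothing. Without the arrays that stand apart the same 12 members were called the same way. AT4G15660 was at 6.72, 8.85 and 9.18 in leaf 7, 3.33, 4.72 and 6.98 in leaf 9 and 3.07, 5.28 and 6.03 in leaf 11, a fall of −3.63 ± 0.39 (adjusted p = 2.12e-10). AT4G15700 went from 7.50, 9.47 and 9.79 to 3.95, 5.89 and 7.33 (−3.25 ± 0.31, adjusted p = 9.64e-12). In both genes every leaf 11 array lay below every leaf 7 array.

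AT4G15680 (−3.48 ± 0.52) and AT4G15690 (−3.21 ± 0.39) fell with them. These neighbouring genes are near-identical tandem copies, so their probes may share signal and the 4 values may not be separate measurements. Genes of the family elsewhere in the genome fell too. AT3G62950 was at 6.25, 7.88 and 8.65 in leaf 7 and 3.38, 5.22 and 6.02 in leaf 11 (−2.80 ± 0.45), and AT1G03020 at 3.33, 4.54 and 5.42 in leaf 7 and 1.64, 1.92 and 2.22 in leaf 11 (−2.52 ± 0.25, adjusted p = 1.59e-11). Neither overlapped between the leaves. The leaf 11 arrays of AT1G03020 and the lowest of AT4G15680 lay at or near the level of CLV3 and the pollen markers, so the sizes of these fitted falls are not measured ratios. AT2G30540 (−1.27), AT3G62930 (−1.12) and AT5G18600 (−0.55) completed the 9 that fell; AT3G62930 lost its call without leaf 11 replicate 1 of experiment 1 (adjusted p = 0.0561) or leaf 11 replicate 3 of experiment 2 (0.0659).

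The 3 members that rose were AT2G47880, AT5G11930 and AT4G33040. AT2G47880 was at 6.83, 7.39 and 8.62 in leaf 7 and 7.74, 9.15 and 10.27 in leaf 11 (1.78 ± 0.37, adjusted p = 0.000611). AT5G11930 rose by 1.78 ± 0.29 and AT4G33040 by 1.05 ± 0.24. Within each experiment all leaf 11 arrays of these 3 genes lay above all leaf 7 arrays, although the pooled ranges overlapped. ROXY1 (−0.12) and ROXY2 (−0.18), which act in petal and anther development, AT1G06830 (0.44), AT3G62960 (0.93, adjusted p = 0.0514) and GRX480 (−1.11, adjusted p = 0.263), which binds TGA factors, were not called.

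**Figure D4:**
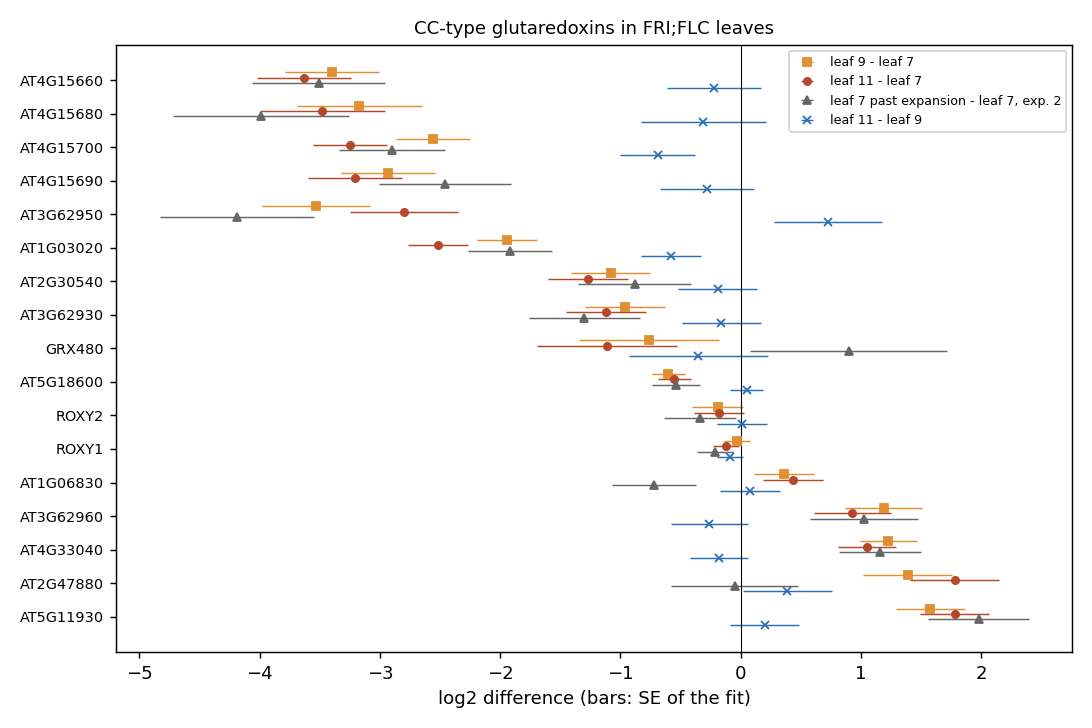
Log2 differences (x axis) of the 17 CC-type glutaredoxins measured (y axis), for leaf 9 against leaf 7, leaf 11 against leaf 7, leaf 7 past full expansion against leaf 7 and leaf 11 against leaf 9; bars are SE of the fit. The first 6 genes lie between −4.19 and −1.92 in all comparisons with fully expanded leaf 7, and between −0.69 and 0.73 in leaf 11 against leaf 9.

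The steepest fall of all named genes was that of AT1G62510, which is outside the family. Its signal was 8.62, 9.00 and 9.67 in leaf 7, 4.4, 6.09 and 6.52 in leaf 9 and 4.17, 5.44 and 6.31 in leaf 11, a difference of −3.67 ± 0.37 (adjusted p = 2.73e-11). Leaf 7 was separate from both later leaves. BZIP61 (AT3G58120), a bZIP transcription factor, fell from 4.89, 6.55 and 7.01 to 2.51, 3.52 and 4.22 (−2.74 ± 0.33, adjusted p = 6.13e-09), again without overlap. THI2.2 (AT5G36910), a thionin, a class of small antimicrobial peptides, fell from 8.51, 10.58 and 11.54 to 6.13, 7.30 and 9.17 (−2.85 ± 0.41, adjusted p = 8.45e-07). Its leaves were separate within each experiment but not in the pooled values. BGLU16 (AT3G60130), a beta-glucosidase, was tight in leaf 7 (8.27, 8.66 and 8.74) and lower in leaf 11 (6.10, 7.12 and 7.28), a fall of −1.77 ± 0.19 (adjusted p = 3.48e-10).

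EXLA1 (AT3G45970), an expansin-like protein of the cell wall, fell by −3.42 ± 0.36 over both experiments, from 8.78, 9.64 and 12.09 in leaf 7 to 4.62, 6.58 and 8.47 in leaf 11. The leaves did not overlap, but the size differed: −5.56 ± 0.51 in experiment 1 and −1.28 ± 0.51 (adjusted p = 0.196) in experiment 2, a difference of 4.28 ± 0.72 (adjusted p = 0.000101). AT2G10940 fell by −3.53 ± 0.87 and AT4G17470 by −3.48 ± 0.76, and neither was called in experiment 2 alone. AT3G07350 (−2.83) and AT5G44050 (−2.65) were also lower. AT5G48490 (−2.56, adjusted p = 0.0251) was not called without leaf 7 replicate 1 (0.0520), leaf 7 replicate 3 (0.108) or leaf 11 replicate 2 (0.0679) of experiment 1, nor without leaf 7 replicate 2 (0.0642) or leaf 11 replicate 3 (0.0780) of experiment 2, nor without the 4 arrays that stand apart (0.109). Among probe sets with no gene name, 247866_at went from 6.27, 7.02 and 8.09 in leaf 7 to 1.81, 2.59 and 2.80 in leaf 11 (−4.67 ± 0.58, adjusted p = 1.3e-08), with no overlap; its lowest leaf 11 array was within the range of the pollen markers.

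The 21 cell wall expansion genes measured held 2 that rose and 5 that fell, with a median of −0.21, against 3.90% of all probe sets higher and 4.80% lower. EXPA8, an alpha-expansin, ranged over 4.93, 8.63 and 9.79 in leaf 7 and 4.82, 6.48 and 8.07 in leaf 11, a difference of −1.69 ± 0.51 (adjusted p = 0.0241). The leaves overlapped, and the call was lost (adjusted p from 0.0509 to 0.121) without leaf 7 replicate 1 or 3 or leaf 11 replicate 1 of experiment 1, or leaf 7 replicate 2 or 3 or leaf 11 replicate 1 of experiment 2. XTH33, a xyloglucan endotransglucosylase, had 5 leaf 7 arrays between 2.57 and 3.20 and 1, replicate 3 of experiment 1, at 8.17, against 1.86 to 2.45 in leaf 11; its difference was −1.62, or −2.76 in experiment 1 and −0.48 (not called) in experiment 2. The lowest leaf 11 array of XTH33 lay at the level of CLV3 and the pollen markers, so these sizes are not measured ratios. EXPA16 (−1.38) and EXLA2 (−0.90) also fell, while EXLB1 (1.40 ± 0.33) and EXPA15 (0.53) rose. Without the arrays that stand apart 1 rose and 5 fell.

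Of 8 senescence genes measured, 4 rose and none fell, with a median of 0.12, against 3.90% of all probe sets higher and 4.80% lower. BETA-VPE, a vacuolar processing protease, went from 6.80, 7.64 and 9.17 in leaf 7 to 8.23, 9.06 and 9.91 in leaf 11 (1.36 ± 0.32, adjusted p = 0.00248), and overlapped. WRKY53, a transcription factor that promotes leaf senescence, rose by 1.49 ± 0.40 (adjusted p = 0.0087), 0.46 ± 0.56 in experiment 1 and 2.51 ± 0.56 in experiment 2, and was not called without leaf 7 replicate 2 of experiment 1 (1.16, adjusted p = 0.0618). WRKY6, another factor active in old leaves, rose by 0.89 ± 0.22, and GAMMA-VPE by 0.25 ± 0.07. SAG29 (−0.40), a sugar transporter of ageing tissue, SAG101 (−0.06) and NOL (−0.02), a chlorophyll b reductase, were not called.

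All 3 calls among the 5 chlorophyll and carotenoid genes were falls (median −0.35), against 4.80% of all probe sets lower. CHLM, the magnesium protoporphyrin methyltransferase, moved from 11.77, 12.19 and 12.38 in leaf 7 to 11.26, 11.70 and 12.08 in leaf 11 (−0.47 ± 0.09, adjusted p = 0.00015), with overlap between experiments but not within them. CHLI2 (−0.63 ± 0.16), a subunit of magnesium chelatase, and HEMB1 (−0.35 ± 0.10), which acts early in the pathway, fell as well. LYC (−0.24) and PORB (−0.31) were not called. The 13 nuclear photosynthesis genes (median −0.14) and 69 plastid-encoded genes (median 0.14) had no call in limma, with 3 genes of each list at an unadjusted p under 0.05.

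Among 15 sugar transporters there was 1 rise, near the 3.90% of all probe sets, and 3 falls, against 4.80% of all probe sets, with a median of −0.02. SWEET13, a sucrose exporter, rose from 6.49, 7.28 and 8.44 to 8.26, 9.06 and 9.23 (1.53 ± 0.29, adjusted p = 0.000164). SFP1, a sugar transporter of the ERD6-like group, was tight in leaf 7 (8.69, 9.02 and 9.10) and below that in every leaf 11 array (6.96, 7.80 and 8.41), a fall of −1.19 ± 0.16 (adjusted p = 1.87e-07). Its relative SFP2 fell by −1.11 ± 0.27, and SWEET2, a vacuolar glucose carrier, by −1.80 ± 0.43. NRT2.5 was 1 of 3 genes measured in the nitrogen, sulfate, phosphate and iron supply list, and the others fell. These were BHLH101 (−1.5 ± 0.41), which activates iron uptake, and PYE (−0.74 ± 0.22), a bHLH regulator of the response to iron shortage. Other bHLH genes, among them bHLH104 and bHLH115, were measured outside that list. BHLH101 was not called without leaf 11 replicate 1 of experiment 1 (adjusted p = 0.0689).

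Among 43 UGT glycosyltransferases, 8 rose and 2 fell, with a median of 0.02, against 3.90% of all probe sets higher and 4.80% lower; the 2 falls are near that share. UGT71B6, which glucosylates abscisic acid, rose by 1.28 ± 0.28 with no overlap (5.77, 6.54 and 7.28 in leaf 7, 7.38, 7.97 and 8.09 in leaf 11). UGT76C2, a cytokinin glucosyltransferase, fell by −1.35 ± 0.23 (adjusted p = 2.57e-05), from 4.89, 6.27 and 6.58 to 4.51, 4.76 and 4.97. Its leaves overlapped through leaf 7 replicate 2 of experiment 1. The other rises lay between 0.42 (UGT85A2) and 1.08 (UGT73B5), and UGT76E11 fell by −0.98.

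Of 12 phase change and flowering genes measured (median 0.27), 1 rose and 1 fell, against 3.90% and 4.80% of all probe sets: AGL42 rose and SNZ, an AP2-like repressor of flowering, fell by −0.68 ± 0.18, from 7.06, 7.81 and 8.4 in leaf 7 to 6.72, 7.02 and 7.61 in leaf 11. The leaves were separate within each experiment. SNZ was not called without the arrays that stand apart (−0.56, adjusted p = 0.08). Its relative SMZ differed by −0.36, and AGO7, AGL18, AGL19, AGL24 and FD by 0.52, 0.25, 0.48, 0.41 and 0.22, none called.

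The steps from leaf 7 to leaf 9 and from leaf 9 to leaf 11 were fitted separately. From leaf 7 to leaf 9, 1012 probe sets rose (5.24%) and 1115 fell (5.77%), 2127 or 11.0% in all. From leaf 9 to leaf 11 there was 1 rise and 1 fall (0.00517% each, 0.0103% together), with 750 at an unadjusted p under 0.05. Leaving out 1 array moved the 2 calls to between 0 (without leaf 11 replicate 2 of experiment 2) and 8 (without leaf 11 replicate 3 of experiment 1). They were 5 and 1 without leaf 9 replicates 1 and 3 of experiment 1, 1 without leaf 11 replicate 2 of experiment 1, and 7, 1 and 1 without leaf 9 replicates 2 and 3 and leaf 11 replicate 1 of experiment 2. In experiment 2, where leaves 9 and 11 were collected on the same day, limma called 0, with 715 at an unadjusted p under 0.05. These comparisons share the arrays of leaf 9 and of leaf 7, so their values are given side by side only. AT4G15660 differed by −3.40 from leaf 7 to 9 and −0.22 from leaf 9 to 11, and AT4G14090 by 3.39 and −0.04. For 260140_at the steps were 5.82 and 0.15, and for BZIP61 −3.08 and 0.34.

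A few genes split their change over both steps, although no second step was called. SHN3 differed by 1.5 and then 1.15 ± 0.36, AGL42 by 0.66 and then 0.67 ± 0.18, and SFP1 by −0.68 and then −0.52 ± 0.16. The named gene called from leaf 9 to leaf 11 was AT3G19550. It was at 4.81, 6.47 and 7.99 in leaf 7, 4.94, 6.94 and 8.42 in leaf 9 and 2.89, 5.29 and 6.50 in leaf 11, a last step of −1.74 ± 0.33 (adjusted p = 0.0122). Leaving out leaf 9 replicate 3 or leaf 11 replicate 2 of experiment 1, or leaf 9 replicate 3 or leaf 11 replicate 1 or 2 of experiment 2, took that adjusted p to between 0.0676 and 0.331.

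Experiment 1 alone gave 444 rises (2.30%) and 758 falls (3.92%), 1202 or 6.22% in all, and experiment 2 alone gave 427 (2.21%) and 218 (1.13%), 645 or 3.34% in all. They share no arrays: 178 probe sets were called the same way in both, 14.8% of the calls of experiment 1 and 27.6% of those of experiment 2, and 18 were called in opposite ways. A test of the difference called 255 probe sets (1.32%), 217 of them (1.12%) with the higher value in experiment 2 and 38 (0.197%) with the lower. Leaving out 1 array took experiment 1 to 712 (leaf 7 replicate 1), 773 (leaf 7 replicate 3) or 629 (leaf 11 replicate 2), and experiment 2 to 420, 356 or 398 (leaf 7 replicates 1, 2 and 3) or 416 (leaf 11 replicate 2). The count for the difference became 157 or 444 without leaf 11 replicate 1 or 3 of experiment 1, and 161 without leaf 7 replicate 2 of experiment 2. Without the arrays that stand apart the counts were 2308 for experiment 1, 781 for experiment 2 and 1862 for the difference. With only the groups compared in the fit they were 64 for experiment 1, 431 for experiment 2 and 16 for the difference. Every leaf 11 array was above every leaf 7 array in each experiment for 328 probe sets (1.70%) and below for 530 (2.74%).

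AT2G22880 moved in opposite directions. In experiment 1 it was at 8.44, 4.85 and 7.96 in leaf 7 and 2.97, 4.26 and 4.68 in leaf 11 (−3.11 ± 0.75), and in experiment 2 at 5.17, 4.32 and 5.49 in leaf 7 and 7.83, 9.66 and 8.02 in leaf 11 (3.52 ± 0.75). Neither experiment had overlapping leaves, and the difference was 6.63 ± 1.06 (adjusted p = 5.26e-05). AT5G52050 (−3.13 and 2.88) and AT5G66650 (−2.49 and 2.56) were also called in opposite directions. AT3G23550 rose by 4.85 ± 0.73 in experiment 1, from 4.95, 3.66 and 7.40 to 9.44, 10.21 and 10.90, and differed by −0.32 in experiment 2, where leaf 7 was already at 8.90, 8.60 and 9.07. Leaf 7 of experiment 1 was the low group. AT4G16260 likewise differed by 5.06 in experiment 1 and 0.47 in experiment 2, with leaf 7 between 1.52 and 3.26 in the first and between 3.97 and 6.39 in the second. Its lowest leaf 7 array of experiment 1 lay at the level of CLV3. The sizes of that rise and of the difference between experiments are therefore not measured ratios.

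EXPA16 (−2.96 and 0.20), EXLA2 (−1.82 and 0.02) and EXO (−3.04 and 0.19), a gene that promotes cell expansion, fell in experiment 1, and the difference between experiments was called in each (3.15, 1.84 and 3.23). EXO over both experiments (−1.42) was not called without leaf 7 replicate 3 of experiment 1 (−0.85, adjusted p = 0.125). GRX480 differed by −3.49 and 1.27 (difference 4.75, adjusted p = 0.015). PDF1.2, a defensin marking jasmonate and ethylene response, rose by 4.45 in experiment 1, from 5.06, 5.64 and 6.44 to 9.15, 9.46 and 11.87, and differed by −0.42 in experiment 2, where leaf 7 was at 9.49, 9.13 and 9.72. The test of that difference gave an adjusted p of 0.0981.

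**Figure D5:**
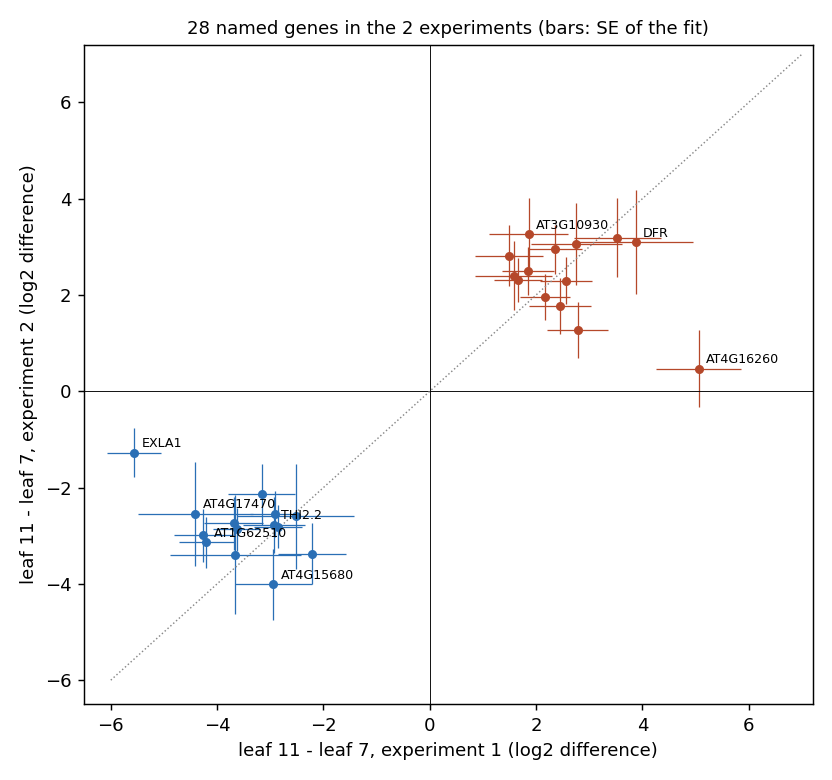
Log2 difference of leaf 11 against leaf 7 in experiment 1 (x axis) and experiment 2 (y axis) for the 28 genes named in the comparison, which were chosen to have the same sign in both; bars are SE of the fit and the dotted line marks equal values. AT4G16260 (5.06 and 0.47) and EXLA1 (−5.56 and −1.28) lie farthest from that line.

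Leaf 7 left on the plant until day 33 was compared with leaf 7 on day 29 and with leaf 11 on the same day 33, both in experiment 2. Past full expansion, leaf 7 had 589 higher (3.05%) and 523 lower (2.71%) probe sets than at full expansion, 1112 or 5.75% in all. Leaf 11 had 45 higher (0.233%) and 81 lower (0.419%) probe sets than that older leaf 7, 126 or 0.652% in all. Leaving out leaf 7 replicate 2 gave 542 for the first count and leaving out replicate 2 of the older leaf gave 629; the second count was 62 without leaf 11 replicate 2 and 66 without replicate 1 of the older leaf. The comparisons share arrays with the leaf 11 against leaf 7 difference of experiment 2. Leaf 11 against leaf 7 in experiment 1 shares none with the older leaf 7: 252 probe sets were called the same way there and in leaf 7 past full expansion against leaf 7, 21% of the 1202 and 22.7% of the 1112, and 22 the opposite way.

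The anthocyanin genes were as high in the older leaf 7 as in leaf 11 or higher. AT4G14090 was at 10.40, 10.99 and 9.79 there, 4.50 ± 0.82 above leaf 7 at full expansion, and leaf 11 differed from it by −1.31 ± 0.82 (adjusted p = 0.753). DFR was at 11.77, 12.40 and 11.45, and UF3GT at 8.90, 9.39 and 8.09, above all 3 leaf 11 arrays of experiment 2 in each case. The call of DFR between the leaf 7 stages was lost without leaf 7 replicate 2 (adjusted p = 0.179) or 3 (0.0634). It was also lost without replicate 2 of the older leaf (0.0576). Of the CC-type glutaredoxins, 6 fell and 2 rose in leaf 7 past full expansion, and none was called by limma between leaf 11 and that leaf, with 3 at an unadjusted p under 0.05. AT4G15660 changed by −3.51 and AT3G62950 by −4.19. BZIP61 (−4.21), THI2.2 (−3.61), BGLU16 (−2.19) and APL3 (0.96) were called in the same direction as in leaf 11.

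Other genes were not called in the older leaf 7. SFP1 differed by −0.33 ± 0.23 between the leaf 7 stages, AT2G47880 by −0.05 ± 0.53, WSD1 by −0.14 ± 0.56 and AGL42 by 0.61 ± 0.26. Leaf 11 differed from the older leaf 7 in these 4 genes by −0.74, 1.90 (adjusted p = 0.0701), −0.87 and 0.62, none called. AT1G62510 fell in both, by −1.83 in the older leaf 7 and −3.14 in leaf 11 of experiment 2.

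Among the genes that did separate leaf 11 from the older leaf 7, EXPA8 was at 7.24, 8.07 and 7.61 in leaf 11 and 3.53, 4.96 and 3.90 in the older leaf, a difference of 3.52 ± 0.72 (adjusted p = 0.003; 0.0508 without replicate 1 of the older leaf). CML41, a calmodulin-like calcium sensor, was at 5.77, 5.56 and 4.28 in leaf 11 and 10.83, 9.89 and 8.88 in the older leaf (−4.67 ± 0.63, adjusted p = 2.68e-06). In both genes the groups were separate. AT5G39520 (−4.56) and PYK10 (−3.22), a myrosinase-like beta-glucosidase best known from roots, were lower in leaf 11, and TBL45 (2.2) and AT5G12940 (2.30) higher. PYK10 was not called without replicate 1 of the older leaf (−2.35, adjusted p = 0.0995) and AT5G12940 not without leaf 11 replicate 2 (1.59, adjusted p = 0.0697). The leaf 11 arrays of PYK10 lay between 2.34 and 2.71, in the low part of the array's range.

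SAG29 stood at 5.21, 7.46 and 2.66 in the older leaf and at 2.03, 2.1 and 2.04 in leaf 11. Its difference of −3.05 ± 0.79 (adjusted p = 0.0414) rested on the first 2 of these arrays. The call was lost without replicate 1 (adjusted p = 0.163) or replicate 2 (0.558) of the older leaf. It was also lost without leaf 11 replicate 1 (0.106), 2 (0.142) or 3 (0.116). The leaf 11 arrays of SAG29 lay near the level of CLV3 and the pollen markers, so the size of this difference is not a measured ratio.

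The lower interval, from leaf 3 on day 23 to leaf 5 on day 26, shares no arrays with leaf 11 against leaf 7. It spans fewer leaf positions and fewer days than the upper one, and neither the counts nor the test adjust for that. It held 94 calls (0.486%), 47 each way (0.243%), and 23 of them were called the same way from leaf 7 to leaf 11, which is 24.5% of the 94 and 1.37% of the 1681. A test of the difference between the intervals called 502 probe sets (2.60%), 230 (1.19%) with the higher and 272 (1.41%) with the lower value in the upper interval, and 331 without leaf 3 replicate 1 of experiment 2. AT4G14090 differed by 0.06 from leaf 3 to leaf 5 and DFR by −0.83, and the differences between intervals were 3.30 and 4.32, both called; the call of DFR was lost without leaf 3 replicate 3 (adjusted p = 0.0512) or leaf 7 replicate 3 (0.0528) of experiment 1. The glutaredoxins AT4G15660, AT4G15690 and AT4G15700 differed by 0.42, 0.34 and 0.22 in the lower interval, against falls of more than 3 in the upper one, and the intervals differed by −4.05, −3.55 and −3.48. Of the 17 family members limma called none from leaf 3 to leaf 5, with 1 at an unadjusted p under 0.05.

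The flc-3 mutation was compared over the step from leaf 7 to leaf 9, since the leaf at position 11 was cauline in that genotype. In FRI;flc-3, 563 probe sets rose (2.91%) and 846 fell (4.38%), 1409 or 7.29% in all. The leaf 11 against leaf 7 calls of FRI;FLC, which share no arrays with them, held 338 called the same way (20.1% of 1681 and 24% of 1409) and 22 called the opposite way. The test of the leaf 9 against leaf 7 step between the genotypes called 781 probe sets (4.04%), 277 higher (1.43%) and 504 lower (2.61%) in FRI;flc-3. That count ran from 462 (without FRI;flc-3 leaf 9 replicate 3 of experiment 2) to 1486 (without FRI;FLC leaf 9 replicate 2 of experiment 2). It was also lower without leaf 7 replicate 1 of experiment 1 in FRI;FLC (513) or FRI;flc-3 (519), or without FRI;flc-3 leaf 7 replicate 1 (508) or 3 (486) of experiment 2, and 1346 without replicate 2 of the latter. The anthocyanin genes DFR (3.47) and AT4G14090 (2.13) rose in FRI;flc-3 as well, by amounts whose difference from FRI;FLC was not called.

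Several genes that fell in FRI;FLC did not pass in FRI;flc-3, and the difference itself was called. AT1G62510 changed by −3.36 from leaf 7 to leaf 9 in FRI;FLC, against −0.36 in the mutant (difference 3.00 ± 0.52, adjusted p = 0.000234). THI2.2 changed by −2.86 and −0.39 (2.47 ± 0.58, adjusted p = 0.00711), and AT1G03020 by −1.94 and 0.16 (2.1 ± 0.35, adjusted p = 0.00015). AGL42 rose in both, by 0.66 and 4.94 (4.28 ± 0.26). PDF1.2 rose by 2.93 in FRI;FLC but changed by −2.87 in the mutant (−5.80 ± 1.06, adjusted p = 0.000535). From leaf 7 to leaf 11 of FRI;FLC, PDF1.2 rose in experiment 1 but differed by −0.42 in experiment 2. The step to leaf 9 was not fitted by experiment. APL3 rose by 1.03 in FRI;FLC but differed by −0.05 in the mutant (−1.08 ± 0.22, adjusted p = 0.00147).

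In 1 mm primordia at the same positions, on other arrays, 1018 probe sets rose (5.27%) and 1678 fell (8.68%) from leaf 7 to leaf 11, 2696 or 14.0% in all. Leaving out leaf 7 replicate 2 gave 1667 calls and leaving out leaf 11 replicate 2 gave 1640. Of the 1681 calls in expanded leaves, 262 were called the same way in primordia (15.6% of 1681 and 9.72% of 2696) and 105 the opposite way. DFR (1.08 ± 0.20), AT4G14090 (1.28 ± 0.25) and UF3GT (0.82 ± 0.24) rose in primordia too, and so did AGL42 (1.90 ± 0.16). BZIP61 (−1.32) and SNZ (−0.97) fell at both stages. The glutaredoxins AT4G15660 (−0.10), AT4G15700 (0.11) and AT1G03020 (−0.03), all falling in expanded leaves, were not called in primordia. There 3 of the 17 members fell: AT2G30540 (−1.04), AT1G06830 (−1.41) and AT4G33040 (−0.57). Of these only AT2G30540 also fell in expanded leaves, where AT1G06830 was not called and AT4G33040 rose.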

How the data were processed

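RNA of FRI;FLC leaves was amplified, labelled with biotin and hybridised to Affymetrix arrays, per the labels' protocols. The authors deposited 1 table of log2 signal per probe set; the submitters' processing notes name GCRMA and MAS5, with versions and roles not given in the sources used here. Values were used as deposited, with no further normalization.

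limma 3.58.1 in R 4.3.3 fitted 1 mean per group to 90 leaf arrays (30 groups), and separately to 36 primordium arrays (12 groups), with a variance trend; tests were two-sided, with Benjamini-Hochberg adjustment over 19324 probe sets. The steps were tested on simulated data with independent noise in every array. That simulation held no arrays that stand apart and no deviations shared between arrays, so it does not test the calls made here. Precision is limited by the number of arrays.

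Probe sets were named from the platform annotation and RefSeq symbols: 10918 had 1 gene, 407 several, 7958 none and 41 were controls. Of a gene's probe sets the one with the highest mean was used. Levels were compared across genes in the marker check, the cut at a mean of 5 and the remarks on low signal. No adjustment was made there for differences between probe sets. Named genes were the 14 largest called differences each way with the same sign in both experiments and a mean of at least 5, the 4 largest each way in other comparisons, and the 2 largest of each gene list; further list members were named after their values were seen. Members and lists were chosen with earlier results of these data known, and list symbols that matched another gene were replaced by locus tags after values were seen.

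Alternatives were quantile normalization, a filter on low signal, other variance priors, array weights, the replicate block, removal of the trend with gene length, other sets of groups, single experiments, each array left out and, chosen after seeing the data, the 4 arrays that stand apart left out.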

Additional observations from a re-analysis of the deposited data

Results flagged for a closer look

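The test of the difference between the experiments in leaf 11 against leaf 7 picked out 8 genes (experiment 2 minus experiment 1, with the largest differences each way among called genes). AT2G22880 differed by 6.63, AT3G01830 by 6.31, AT5G52050 by 6.00 and AT5G66650 by 5.06, all with the higher value in experiment 2. The call of AT3G01830 was lost without any 1 of 7 arrays (adjusted p from 0.0532 to 0.184). AT3G23550 differed by −5.17, AT4G16260 by −4.60, AT1G10990 by −2.86 and AT5G57760 by −2.82. AT4G16260 was not called without leaf 7 replicate 1 of experiment 1 (0.0531) or leaf 7 replicate 3 of experiment 2 (0.0837).

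The upper interval (leaf 11 against leaf 7) differed from the lower (leaf 5 against leaf 3) by 4.32 in DFR, 3.30 in AT4G14090, 2.84 in AT4G01390 and 2.70 in AT1G43910. It differed by −4.05 in AT4G15660, −3.55 in AT4G15690, −3.48 in AT4G15700 and −3.30 in AT3G15310, the last of which rose by 1.92 from leaf 3 to leaf 5.

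The step from leaf 7 to leaf 9 differed between the genotypes (FRI;flc-3 minus FRI;FLC) by 4.28 in AGL42, 3.00 in AT1G62510, 2.80 in AT5G38710 and 2.80 in AT3G62950. It differed by −5.94 in PDF1.2b, −5.80 in PDF1.2, −4.96 in AT4G16260 and −3 in AT3G23550. AT4G16260 and AT3G23550 differed between the experiments of FRI;FLC as well.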

How the results depend on the processing

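Quantile normalization, both other variance priors and the replicate block left leaf 11 against leaf 7 at 1674 to 1769 calls. Of 138 called gene results, 69 kept call and direction in every alternative. Array weights gave 3183 calls, 3188 and 3187 in experiments 1 and 2, 3096 for their difference, 4208 for leaf 9 against 7, 98 for 11 against 9, 650 for 11 against older leaf 7, 4203 for older leaf 7 against leaf 7, 1636 for the intervals and 2765 for the genotypes. Experiment 2 alone gave 645. Fewer probe sets were tested with the length trend removed (10857) or above the median signal (9662). In that order these 10 counts, without 11 against 9 in the first, were 897, 639, 353, 120, 1194, 66, 622, 261 and 486, and 950, 665, 300, 103, 1320, 1, 39, 532, 263 and 509; primordia had 1416 and 1698. Fitting only the groups compared gave 848, 64 (experiment 1), 16 (difference), 751, 0 (11 against 9), 38, 1850 and 240 (genotypes); the cause was not tested. Without the 4 arrays that stand apart, experiment 1 had 2308, the difference 1862 and 11 against 9 5. Leaving out 1 array gave 1307 to 1773 calls, 629 to 1771 and 356 to 524 by experiment, 157 to 444 for the difference, 1519 to 2642 for leaf 9 against 7, 0 to 8 for 11 against 9, 62 to 116 and 542 to 884 for older leaf 7, 331 to 559 for the intervals, 462 to 1486 for the genotypes and 1640 to 2681 in primordia.

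The replicate block moved 11 against older leaf 7 to 54 and older leaf 7 against leaf 7 to 525. The block was fitted separately by genotype, stage and experiment, with replicate 1 as its reference. Both of these comparisons cross stages, so with the block they compare replicate 1 levels. Their counts therefore do not measure how far the calls depend on replicate batches. Same-numbered arrays of leaves 7 and 11 deviated with correlations of 0.136, −0.33 and −0.0732 in experiment 1 and 0.0434, −0.408 and −0.321 in experiment 2, so numbers were not taken as pairing in that comparison. For leaves 9 and 11 they were 0.506, 0.445 and 0.745 in experiment 1 but 0.457, −0.594 and −0.525 in experiment 2, and for leaves 7 and 9 0.0883, −0.241 and −0.258 in experiment 1 but 0.171, 0.347 and 0.412 in experiment 2. In each of these comparisons all 3 pairs exceeded 0.1 in 1 experiment and not in the other. With the block, leaf 9 against 7 had 2285 calls and leaf 11 against 9 had 2.

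Signs turned for GID1A (−0.01 with array weights, −0.31 in experiment 1), and in experiment 1 for AUR1 (−0.11), TCP15 (−0.54), CML37 (−0.43), PUB23 (−0.38) and PUB22 (−0.52). In experiment 2 they turned for EXO (0.19), PDF1.2 (−0.42), GRX480 (1.27), CYP71B22 (−0.13) and AT1G06830 (−0.01). With 1 array left out they turned for AUR1 (range −0.06 to 0.25), TRY (−0.4 to 0.08, and 0), HTR12 (−0.11 to 0.52, and 0) and HON4 (−0.44 to 0.01). Of these, EXO and CYP71B22 were called over both experiments.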

Other observations

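Single members were called in several lists, beside 3.90% of all probe sets higher and 4.80% lower; 1 call in a short list is no sign about the list. JMT, the jasmonate methyltransferase, was at 4.64, 5.53 and 8.13 (lowest, median and highest log2 signal) in leaf 7 and 3.74, 4.22 and 4.79 in leaf 11, a fall of −1.82 ± 0.32 (adjusted p = 5.17e-05), and was the 1 call among 4 jasmonate genes. STZ, a zinc finger protein of the stress response, rose by 1.94 ± 0.38 (adjusted p = 0.000265), the 1 call of 6 cold and dehydration genes. STOMAGEN, a peptide made in mesophyll that promotes stomata, fell by −1.26 ± 0.37 (adjusted p = 0.0211). It was not called without leaf 7 replicate 3 (0.0752) or leaf 11 replicate 2 (0.0917) of experiment 1, or leaf 11 replicate 3 of experiment 2 (0.0694). JAL34, a jacalin lectin (−1.56), and BGLU40, a beta-glucosidase (−0.97), fell beside BGLU16, the 3 calls of 22 in their list. Among 15 auxin genes IAA29 (−0.95), YUC2 (−0.51) and IAA34 (−0.34) fell, and IAA29 was not called without any 1 of 9 arrays (adjusted p from 0.0542 to 0.198).

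Among 18 cytochrome P450 genes CYP71B22 rose by 1.27 ± 0.28 and CYP71B37 fell by −0.46 ± 0.09, 1 call each way and near the 3.90% and 4.80% of all probe sets. CYP71B22 differed between the experiments, 2.67 in experiment 1 and −0.13 in experiment 2 (difference −2.80 ± 0.55, adjusted p = 0.00146). MSRB5, a methionine sulfoxide reductase, fell in expanded leaves (−0.61 ± 0.10) and in primordia (−2.17 ± 0.29), and MSRB6 by −0.96 and −1.94. AT4G19430 rose by 1.95 ± 0.41 in expanded leaves and fell by −2.18 ± 0.25 in primordia. limma called 0 of 33 ubiquitin genes, 9 leaf shape genes, 3 trichome genes, 7 histone genes and 4 cell cycle genes, with 2, 1, 1, 0 and 0 at an unadjusted p under 0.05.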
